A study of Caenorhabditis elegans with 2 samples.

Results

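The CUT homeobox genes ceh-21, ceh-38, ceh-39, ceh-41, ceh-48 and ceh-49 of the nematode *Caenorhabditis elegans* were examined for sites occupied by CEH-8, a homeodomain protein. The genes were chosen by name and are 6 of the 19973 protein-coding genes on the nuclear chromosomes. For each, the peaks whose summit lay in the gene body or within 3000 bp of it were collected from every deposited list. Chromatin immunoprecipitation with an anti-GFP antibody had been done in 2 biological replicates of one group. The animals were mixed-sex L1 larvae of 6 hours, starved after bleaching, of strain OP760. The strain carries the allele tm4063 of unc-119 and the transgene wgIs760, in which ceh-8 is joined at its C-terminal end to TY1, EGFP and 3xFLAG tags and which also holds unc-119(+). Both replicates thus carried the allele, its rescue and the tagged gene, and no other genotype or condition was there to compare them with. Whole larvae were used, so the cells in which a site was occupied are not known.

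CUT homeobox proteins bind DNA through a CUT domain next to a homeodomain. The 6 genes encode proteins of the ONECUT class, and a further worm gene, ceh-44, encodes the CUX class protein. In *C. elegans* CUT factors act together on genes that all neurons express, such as those of synaptic vesicle release, while other homeodomain proteins set the identity of single neuron classes. ceh-8 is known for its expression in RIA, a class of interneurons.

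Signal is the authors' value for each peak, of a scale not given in the sources used here. It ranks peaks within a list, rank 1 being the strongest. There were 30000 peaks in the list of each replicate and in that of the pooled reads. The authors' list of peaks past a threshold of the irreproducible discovery rate (IDR), which asks how alike peaks rank in replicates, held 1891. These were exactly the 1891 strongest pooled peaks. A peak was counted as found in both replicates when one of the 1891 strongest peaks of each had its summit within 200 bp, which held for 1097 of the IDR peaks (58.01%). Read depth is unknown. Coordinates are on ce11.

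Of the 6 genes, ceh-38, ceh-39 and ceh-48 had an IDR peak in their window and ceh-21, ceh-41 and ceh-49 had none. Each of the 3 had exactly 1, and all 3 peaks were found in both replicates. Across all protein-coding genes 15.9% had an IDR summit in the same window, and 10.1% had one that was found in both replicates. These shares were not matched for gene length. The median length was 2899 bp for the CUT genes and 2027 bp for all, so the CUT windows tended to be larger. With 6 genes, 3 of which are neighbours on X, the count is a description and was not tested. Where the peaks lay differed from gene to gene. The one at ceh-38 covered the gene's first start, while those at ceh-39 and ceh-48 lay 2636 and 2083 bp upstream of the gene.

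Sequences at or near these 3 summits are shown first. Each is given 5′ to 3′ on the strand of the CUT gene and is 101 bases long. At ceh-39 and ceh-48 the summit is the middle base. At ceh-38 the summit lies in the 5′ untranslated region, so the 101 bases just before the gene start are shown instead (chrII:6951425-6951525, plus strand). The window of ceh-39 is chrX:1858758-1858858, minus strand, and that of ceh-48 chrIV:6809975-6810075, plus strand. Capitals mark TAAT, the core of most homeodomain sites, or its complement ATTA. Since the ceh-38 stretch does not hold the summit, its capitals cannot be set beside the windows of ceh-39 and ceh-48.
ceh-38: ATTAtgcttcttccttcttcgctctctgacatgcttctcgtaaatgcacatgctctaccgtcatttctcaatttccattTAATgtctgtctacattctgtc
ceh-39: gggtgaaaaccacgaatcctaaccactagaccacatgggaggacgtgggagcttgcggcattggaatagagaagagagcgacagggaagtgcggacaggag
ceh-48: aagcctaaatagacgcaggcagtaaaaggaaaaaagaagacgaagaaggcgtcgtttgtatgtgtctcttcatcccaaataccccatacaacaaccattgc

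ceh-38 encodes a ONECUT protein made in most tissues, neurons among them. The gene (WBGene00000459, II, 6951526 to 6955409, plus strand) had the strongest peak of the 6 (II, 6951389 to 6951738). The pooled signal was 164 at rank 557. In replicate 1 the signal was 98.3 at rank 490, with the summit 17 bp away. In replicate 2 it was 67.8 at rank 801, with the summit at the same base. The peak was thus in the upper part of the 1891 strongest in either replicate. Signals of different lists are on different scales and only the ranks can be set side by side.

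The ceh-38 summit lay 38 bp inside the outermost gene start, in its 5′ untranslated region. It was also 264 bp from the start of malt-1, the worm relative of a paracaspase gene, which runs the other way on the minus strand. Only 225 bases separate the genes, and the peak covered part of that interval and the ceh-38 start but did not reach the malt-1 start. Which of the genes the site belongs to cannot be told apart from these files. Ensembl lists 24 ceh-38 transcripts with 11 distinct starts between 6951526 and 6952070. Of the 24, 8 start within 200 bp of the IDR summit. The other 16 begin further inside the gene, from 433 to 506 bp past the summit.

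A weaker peak lay near that inner group of starts. In the pooled list its summit was 769 bp inside the gene, 225 bp past the last of the starts, in a coding exon (II, 6952120 to 6952469, signal 73.2, rank 2823). It fell short of the lowest IDR signal, 87.99. In replicate 1 it had rank 2073 and the summit at the same base. In replicate 2 the closest peak lay 124 bp away with rank 4702. The order of the 2 peaks was therefore the same in both replicates, the outer one stronger.

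ceh-48 encodes a ONECUT protein made throughout the nervous system. Its window (WBGene00015934, IV, 6812108 to 6815607, plus strand) held an IDR peak 2083 bp upstream of the gene start (IV, 6809850 to 6810199). The pooled signal was 131 at rank 897. In replicate 1 the signal was 76.7 at rank 831 with the summit 29 bp away. In replicate 2 it was 55.0 at rank 1238 with the summit 5 bp away. Of the 3 IDR peaks this was the weakest in the pooled list and in each replicate.

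The ceh-48 summit was intergenic. No protein-coding start was nearer than that of ceh-48, and the next was that of C17H12.10 at 3226 bp. The nearest protein-coding gene body was nonetheless C17H12.10, whose far end lay 395 bp away, and the non-coding RNA gene C17H12.31, on the minus strand, began 150 bp away. Inside ceh-48 the pooled list held a single further summit, in a coding exon 2292 bp past the start (IV, 6814225 to 6814574, signal 45.2, rank 13061). It had rank 24668 in replicate 2 and no replicate 1 peak within 200 bp.

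That weak exon peak is shown because it held TAATTA and ATTGAT within 50 bp of its summit, letters that none of the 3 IDR summits had within that distance. It was thus picked by its letters and not by its strength. Its deposited −log10 q-value in the pooled list, higher for a surer call, was 0.0132, against 2.30 for the ceh-48 IDR peak. Among weak peaks this value did not follow rank, since the pooled peak of rank 28673 at ceh-21 had 0.0415. Whether CEH-8 occupies the exon site cannot be told from these values. The window is chrIV:6814350-6814450, plus strand, with the summit as the middle base. Capitals mark TAATTA, which homeodomains of the paired-like kind, to which CEH-8 belongs, typically bind, then ATCAAT, which is ATTGAT on the other strand and a site of the ONECUT type, then a single ATTA core. Of its bases 30.7% were G or C.
ceh-48 exon peak: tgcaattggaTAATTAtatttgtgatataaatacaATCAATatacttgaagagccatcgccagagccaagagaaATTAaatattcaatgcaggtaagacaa

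ceh-39 encodes a ONECUT protein that is known as one of the X-linked signals by which the worm embryo counts its X chromosomes and sets its sex. The gene (WBGene00000460, X, 1853874 to 1856172, minus strand) had an IDR peak 2636 bp upstream of its start (X, 1858633 to 1858982). The pooled signal was 150 at rank 685. In replicate 1 the signal was 81.7 at rank 745 with the summit 4 bp away. In replicate 2 it was 67.5 at rank 811 with the summit 21 bp away. The ranks in the 3 lists were closer to each other than those of the other IDR peaks of the family.

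Other genes lay nearer to the ceh-39 peak. Its summit was 11 bp from a tRNA gene (WBGene00023152, X, 1858819 to 1858890, plus strand), whose bases run into the window printed above, and 1914 bp from the start of T26C11.8, a protein-coding gene that runs the other way. Among all IDR summits 59 (3.12%) lay within 200 bp of a tRNA gene. Which of these genes, if any, the site serves cannot be told apart from these files.

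**Figure D1:**
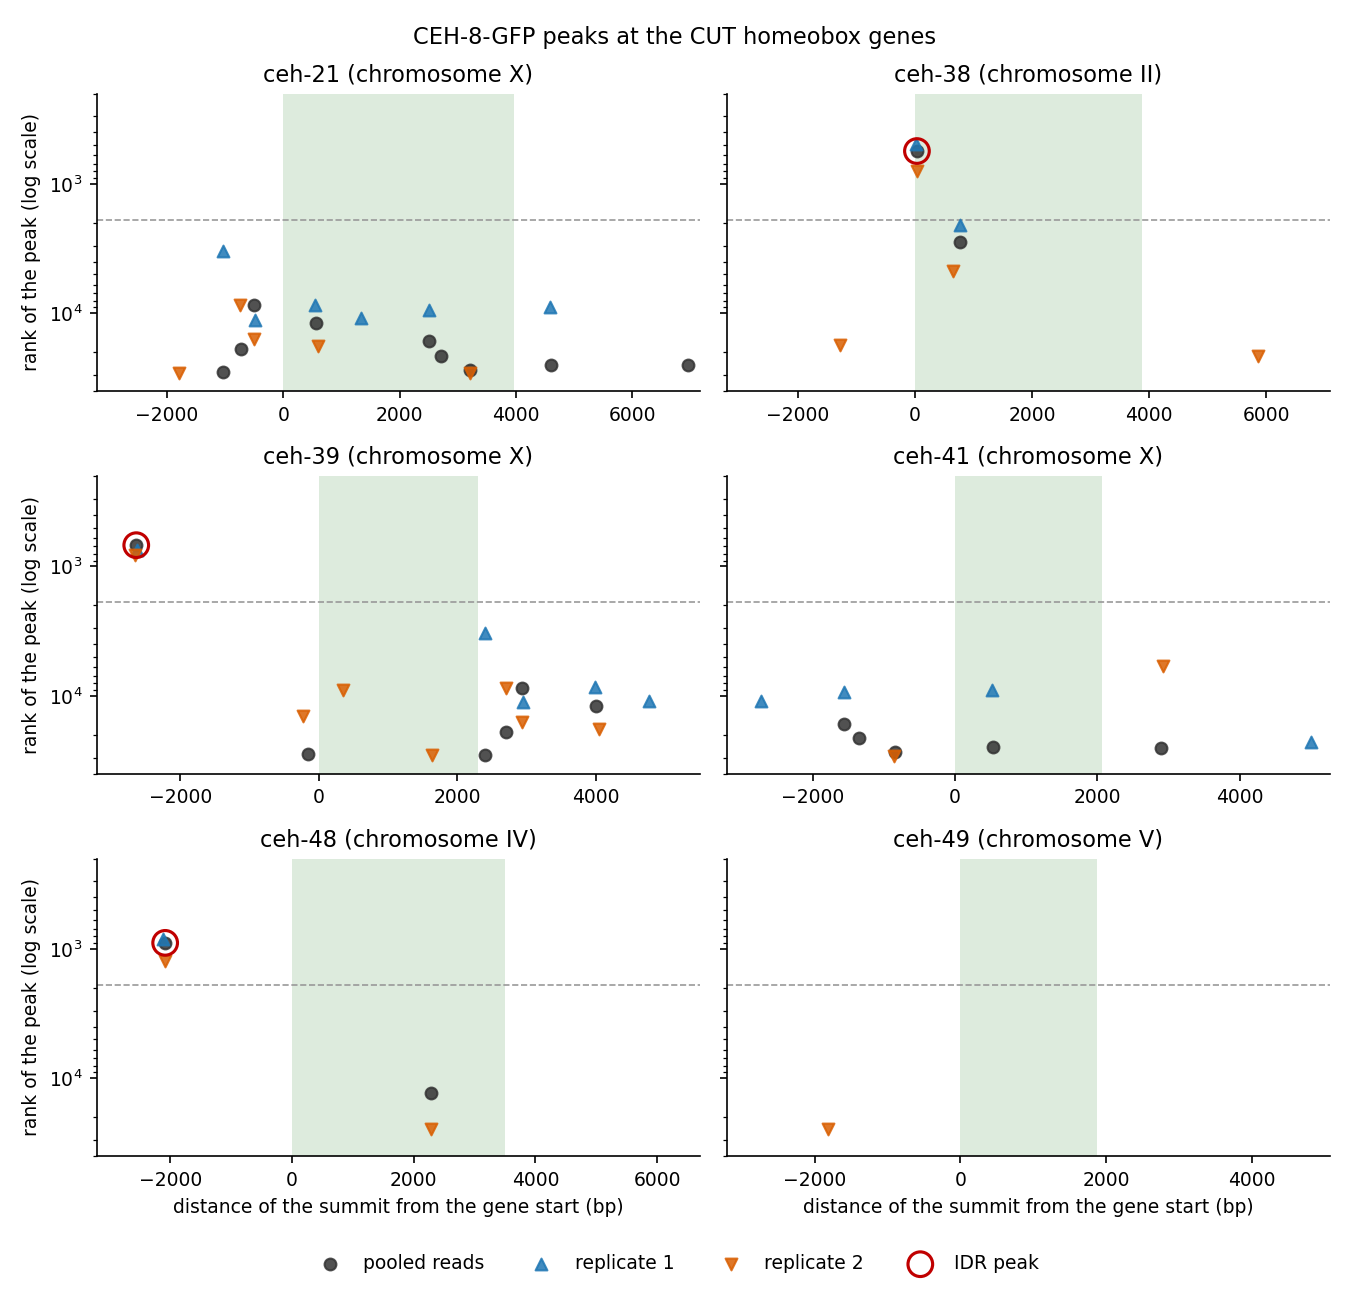
Peaks of the pooled reads (circles), replicate 1 (upward triangles) and replicate 2 (downward triangles) at each of the 6 CUT genes, by distance of the summit from the gene start in bp (negative is upstream) and by rank in the list on a log scale with strong peaks at the top. Green shading is the gene body, the dashed line is rank 1891 and red rings mark IDR peaks. The symbols at the 3 rings lie close together and above the line, while every symbol at ceh-21, ceh-41 and ceh-49 lies below it.

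ceh-21, ceh-39 and ceh-41 stand in a row on X, all on the minus strand, over 9.57 kb. From ceh-41 to ceh-21 the gap is 103 bp and from ceh-21 to ceh-39 it is 1137 bp, with the small gene T26C11.9 in it. The windows of these 3 genes overlap, so they share summits and are not independent. Of the 9 pooled summits at ceh-21, 5 were also at ceh-41 and 4 at ceh-39. Together the 3 windows held 11 distinct pooled summits, of which 3 had a peak of each replicate within 200 bp.

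ceh-21 (WBGene00000444, X, 1848779 to 1852736) had 9 pooled summits, all weak, with deposited −log10 q-values of 0.0415 or less. As many or more summits were found in the window of 2.30% of protein-coding genes, and the median was 2. The strongest lay 507 bp upstream of ceh-21 in a coding exon of T26C11.9 (X, 1853068 to 1853417). Its pooled signal was 51.3 at rank 8639, with ranks of 11189 in replicate 1 and 15924 in replicate 2. The second, in the coding exons of ceh-21 itself, 566 bp past the start, had rank 11901. The strongest replicate 1 peak lay elsewhere, 1040 bp upstream at rank 3287, and the strongest of replicate 2 lay 740 bp upstream at rank 8642. The replicates thus put their strongest peak at different places. No IDR summit was nearer to ceh-21 than the one beyond ceh-39, 6072 bp from the gene.

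ceh-41 (WBGene00000462, X, 1846608 to 1848675) had 5 pooled summits, the strongest at rank 16497 with a signal of 41.9. It lay 1553 bp upstream, which is inside the neighbour ceh-21, and had a replicate 1 peak of rank 9424 but none in replicate 2 within 200 bp. Within ceh-41 itself the pooled list had 1 summit, 538 bp past the start at rank 25024. In replicate 1 the strongest peak, at rank 8977, lay 516 bp past the start, and in replicate 2 the strongest, at rank 5894, lay beyond the gene's far end. The nearest IDR summit was 10133 bp away.

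ceh-49 (WBGene00017538, V, 6118333 to 6120206, minus strand) had no peak in the pooled list and none in replicate 1. Replicate 2 had 1, 1812 bp upstream, with a signal of 20.4 at rank 24738. An empty window was not rare, since 88.4% of protein-coding genes had a pooled summit, 87.9% one of replicate 1 and 90% one of replicate 2. The gene is the shortest of the 6, with 1874 bp against a median of 2027 bp for all protein-coding genes, and its nearest IDR summit was 17516 bp away. The lists hold 30000 peaks each and cannot show occupancy below their weakest peak.

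Set in order by their strongest pooled peak, the genes ran ceh-38 (rank 557), ceh-39 (685), ceh-48 (897), ceh-21 (8639), ceh-41 (16497) and then ceh-49 with none. Of all protein-coding genes 5.67% had a stronger best peak than ceh-38, 6.79% than ceh-39 and 8.63% than ceh-48. The share was 48.4% for ceh-21 and 70.9% for ceh-41. The order of the first 3 was ceh-38, ceh-39, ceh-48 in the pooled list and in each replicate, but the ranks of ceh-38 and ceh-39 in replicate 2, 801 and 811, were close. Between the third and the fourth gene lies the end of the IDR list at rank 1891.

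**Figure D2:**
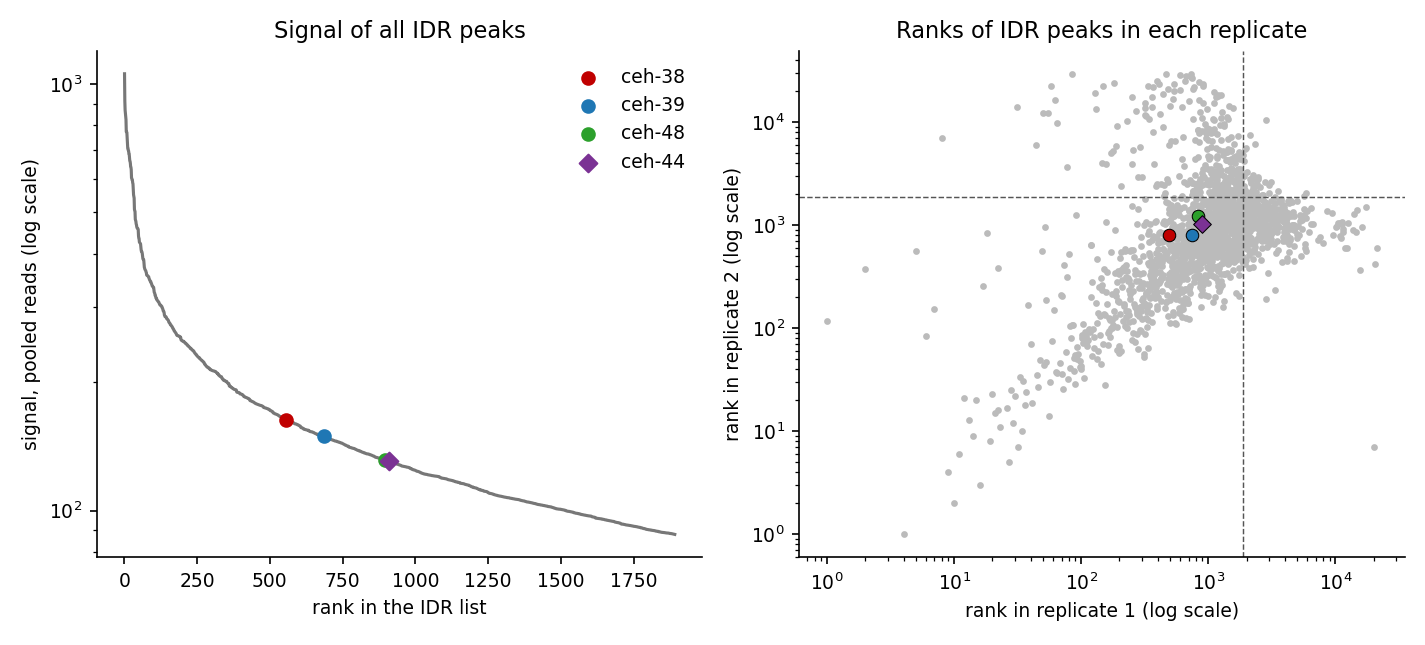
Left, signal in the pooled reads (log scale) by rank for all 1891 IDR peaks (line), with the peaks at ceh-38, ceh-39 and ceh-48 (circles) and at ceh-44 (diamond). Right, the strongest replicate 1 and replicate 2 peak within 200 bp of the IDR peak by rank (log scales), with dashed lines at rank 1891. A replicate 1 peak lay that near to 1880 of the IDR peaks and a replicate 2 peak to 1775. IDR peaks lacking either are not shown on the right. The 4 marked peaks, of ranks 557 to 908 on the left, lie together inside both dashed lines on the right.

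How the 3 IDR peaks lay on their genes was set beside other genes. Within 1000 bp of the gene start there was 1 of the 3, at ceh-38. Of the 3178 genes with an IDR summit in their window, 41.1% had one that near to their start. The gene's own start was the nearest to the summit for ceh-38 and ceh-48 but not for ceh-39, and this held for 47.6% of the 3178. With the window cut to 1000 bp, 1 of the 6 genes had an IDR peak against 9.9% of all genes. In the gene body alone it was again 1, against 2.87%. Widening the window to 5000 bp left the 3 genes, against 21.2% of all. On the X chromosome alone, 18% of protein-coding genes had an IDR summit within 3000 bp, and 1 of the 3 CUT genes there did.

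The strongest peaks of each replicate alone gave the same 3 genes. Of the 1891 strongest in replicate 1, 1 peak lay at each of ceh-38, ceh-39 and ceh-48, and 15.6% of all genes had one. The same held in replicate 2, where 15.4% of all genes had one.

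The letters under the summits were searched on both strands within 50 bp. None of the 3 IDR summits had TAATTA, which 6.93% of all IDR peaks had, or TAATTG, the related homeodomain site, which 11.6% had. None had TAAT, a core that lies in both of those sites and was present at 47.8% of IDR peaks. The ONECUT type letters ATTGAT (6.35% of IDR peaks) and ATCGAT (3.23%) were missing too, as was the repeat GAGAGA (21.6%). Within 100 bp, TAAT was found at ceh-38 and ceh-39, as at 69.9% of IDR peaks, and the other 5 at none of the 3. For scale, windows of 101 bases centred 250 bp from the IDR summits were searched too. The core was present in 62.9% of them and the ONECUT type letters in 9.68% and 3.68%, more often than at the summits. The longer homeodomain sites were present in 5.29% and 7.91% and the repeat in 7.14%, less often than at the summits. With 3 summits the most that can be said is that these letters are not in these windows. At ceh-38 the upstream TAAT cores printed above lay beyond 50 bp from the summit.

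Weak peaks were searched as well. Of the 15 distinct pooled summits at the 6 genes, 2 had TAATTA within 50 bp, among them the exon peak of ceh-48, and 4 had TAAT. Among all 30000 pooled peaks the shares were 3.84% and 54.3%. ATTGAT was present at 1 of the 15, that same exon peak, and at 9.5% of all pooled peaks. GAGAGA was present at 1 and TAATTG and ATCGAT at none.

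Base composition differed between the 3 summits. Within 50 bp, 42.6% of the bases at ceh-38 and at ceh-48 were G or C, against 55.4% at ceh-39, whose window takes in part of the tRNA gene. The median of all IDR peaks was 45.5%, and the middle 50% of them ran from 38.6% to 53.5%. The first 2 thus lay within that range and ceh-39 just above it.

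The CUX gene ceh-44, which is expressed in all neurons and acts beside ceh-38 and ceh-48, was looked at for comparison. Ensembl names its locus cone-1 (WBGene00000464), and RefSeq places ceh-44 at III, 2530620 to 2543068, plus strand. It had 1 IDR peak, 1798 bp upstream of the start (III, 2528647 to 2528996, signal 130, rank 908), with ranks of 886 in replicate 1 and 1024 in replicate 2. The summit lay 133 bp from the start of rbc-2, a rabconnectin gene that runs the other way, and 143 bp from that of Y54F10AM.15. Peaks of pooled rank 1952 and 2133 lay inside the locus. The first was weaker in replicate 2, with rank 3804 against 1727, and the second in replicate 1, with rank 5043 against 1525. dve-1, a more distant relative of the CUT genes, had no IDR peak. The strongest of its 8 pooled summits lay 7 bp inside the gene start at rank 6288.

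Homeobox genes of other classes were counted by the same rule. Of 91, 11 had one in the same window (12.09%), near the 15.9% of all genes, and 8 had one that was found in both replicates (8.79%, against 10.1%). By rank the first were ceh-32 (rank 102, 1155 bp upstream), lim-7 (rank 196, 5805 bp inside), ttx-3 (rank 693, 310 bp upstream) and vab-3 (rank 704, 14345 bp inside). ceh-38, ceh-39 and ceh-48 fell among the ranks of these genes, behind ceh-32 and lim-7. Whether the share of the CUT genes differs from that of the others was not tested.

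Genes expressed in all neurons, on which CUT factors are known to act, had IDR peaks in 10 of 22 cases (45.5%, against 15.9% of all genes). Of these, 6 had one found in both replicates (27.3%, against 10.1% of all genes). Their median length was 6110 bp, against 2899 bp for the CUT genes and 2027 bp for all protein-coding genes. Their windows were thus larger than those of either, and whether the shares differ beyond that was not tested. The strongest were at unc-104, a kinesin gene (rank 436, 802 bp inside the gene), ric-4, which encodes a SNAP-25 protein (rank 515, 9275 bp past the outermost start), syd-2, a liprin gene (rank 919, 2005 bp inside) and unc-33, a CRMP gene (rank 1122). The peak at syd-2 was not found in both replicates, the other 3 were.

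Sex determination genes, the setting in which ceh-39 is known, were counted too. Of 11 genes matched, sea-2 alone had an IDR peak (9.09%, against 15.9% of all genes). It had 3, the strongest 2973 bp upstream at rank 1222. The gene ceh-39, which has an IDR peak in its own window, was not one of the 11. xol-1, the target of the X signals, and sex-1 and fox-1, X signals like ceh-39, had none.

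**Figure D3:**
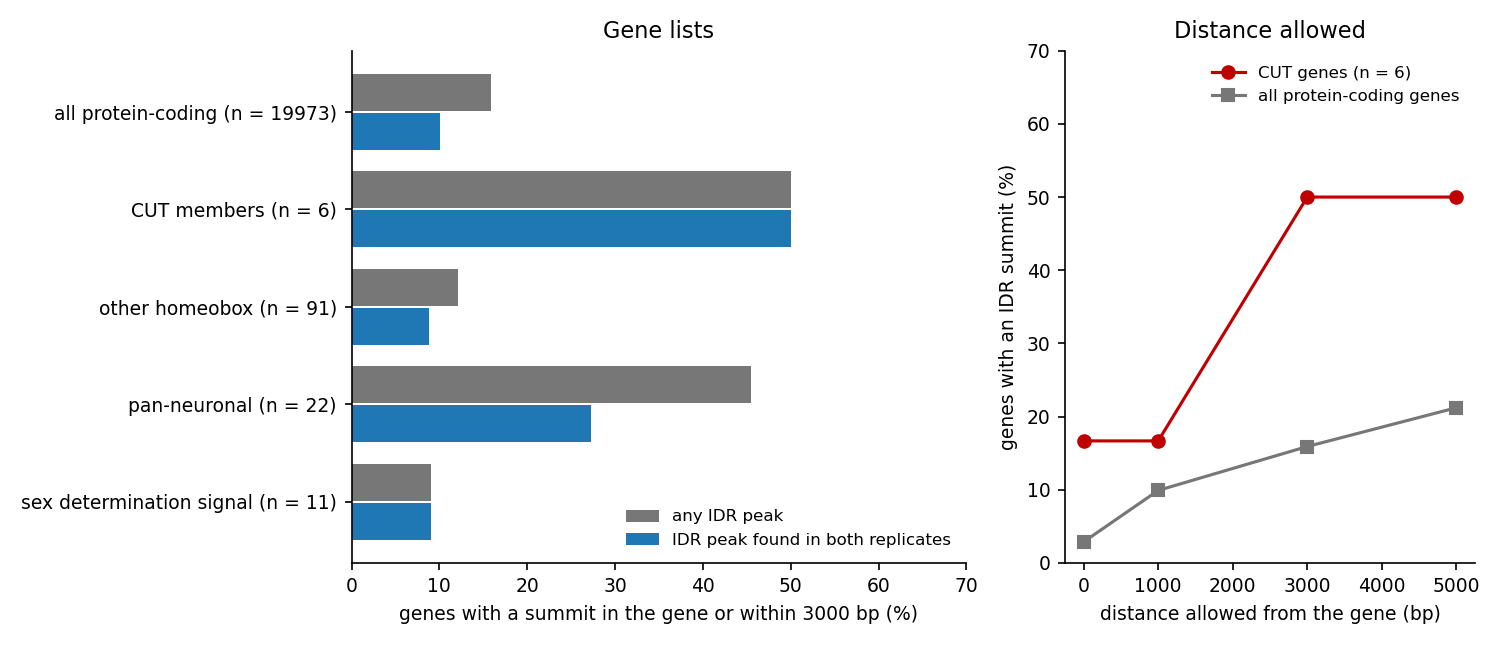
Left, percentage of genes with an IDR summit in the gene or within 3000 bp (grey) and with one found in both replicates (blue), for all protein-coding genes and 4 gene lists. Right, percentage of the 6 CUT genes and of all protein-coding genes with an IDR summit by the distance allowed from the gene in bp, 0 being the gene body. The CUT genes stand at 50% from 3000 bp on, and 1 gene is left at 1000 bp, while all genes rise from 2.87% to 21.2%.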

How the data were processed

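Peak lists of the 2 replicates, of the pooled reads and of IDR peaks were used as deposited. Per the file headers, the authors derived each replicate's list from its alignment and a control alignment, and the IDR list from the other 3. The signal value of each peak, as deposited by the authors, was used to rank peaks within a list. The deposited −log10 q-values were not used to rank or choose peaks and are quoted only for pooled peaks of ceh-48 and ceh-21. The sources used here do not name the aligner, the caller, the read depth or the IDR threshold. Fragments were 200 to 800 bp per the labels.

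Summits (start plus offset) were set beside Ensembl 115 gene models and the sequence of WBcel235, the assembly that ce11 names. No peak ran past a chromosome end. Motifs were searched by their letters. Python 3.11.15, numpy 2.4.6 and pandas 2.3.3 were used, and the counting steps were tested on simulated data. The genes and gene lists were chosen with earlier results of these data known. All 6 genes and their IDR peaks are named, and up to 4 genes of each other list by rank. The names ceh-44 and sex-2 did not match an Ensembl gene, and ceh-44 was taken from RefSeq. The design held 1 group, and no test between conditions was made.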

Additional observations from a re-analysis of the deposited data

How the results depend on the processing

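The number of CUT genes with an IDR peak, the number of their IDR summits and the number found in both replicates were 3 each. All fell to 1, at ceh-38, in the gene body only and within 1000 bp, since the peaks at ceh-39 and ceh-48 lie further out. All were 2 with each summit given to the nearest start only. They stayed at 3 within 5000 bp, with the stronger 50% of IDR peaks and with RefSeq gene models, an alternative chosen after seeing the data. The strongest peaks of either replicate alone also gave 3 genes and 3 summits. The number found in both replicates was 3 with summits within 100 or 500 bp, with an overlap of at least 50% of each peak and with any deposited peak. The settings of 5000 bp, of 500 bp and of any deposited peak are looser than the main ones and could not give fewer. Read depth is unknown, so a site that is missing from a list may lie below its weakest peak.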

Other observations

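Words of 36 bases that occur more than once in the nuclear genome made up 1.11% of the words in the ceh-49 window, 0.895% of those in the ceh-39 window and 0% of those in the other 4 windows. Where reads align at more than one place, they cannot be assigned to one, and the share of such sequence was small in all 6 windows. The place of these words within a window was not recorded. The share under a single peak, such as that of ceh-39 beside the tRNA gene, is therefore not known. The G and C content of the windows ran from 33.97% at ceh-48 to 41.4% at ceh-39, with 35.5% at ceh-49.

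At its far end ceh-38 shares 26 bases with tra-2, a sex determination receptor gene on the other strand. In replicate 2 a peak of rank 21204 lay past that end of ceh-38, 5864 bp from its start, and neither replicate 1 nor the pooled list had one there.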
